A study of Mus musculus with 12 samples.

Results

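Trp63, Sox4, Sox9, Sox10, Kit, Oxtr and Procr are 7 genes that regulate or mark the basal and progenitor cells of the mammary epithelium. They were taken by symbol from a table of 25861 genes, and all 7 had enough counts to be among the 17025 genes tested. The table holds RNA sequencing of 12 mouse libraries in 3 groups of 4. The sh1Cldn7 group carried hairpin 1 and the sh2Cldn7 group hairpin 2, both short hairpin RNAs that lower the messenger RNA of Cldn7, a claudin of epithelial tight junctions; the shControl group carried a non-targeting hairpin and its genotype is labelled WT. All 3 groups were organoids freshly prepared from primary tumours of MMTV-Neu mice, whose Neu (Erbb2) oncogene is driven in mammary epithelium by a viral promoter, so the control too is tumour tissue and not normal gland. Every group received virus at a multiplicity of infection of 20, puromycin at 3 µg/ml for 3 days, medium with 2.5 nM FGF2 and 5 days in collagen I gels. The labels call the material primary epithelial cells; they give no age, and do not say whether tumours were pooled or whether replicates came from separate animals or cultures. The p-values below therefore rest on the spread left between these libraries after differences between replicate numbers are taken out, which may be technical. Fits described as without the replicate block keep those differences in.

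The mammary duct has an inner luminal layer and an outer basal layer of contractile myoepithelial cells. Trp63 encodes p63, a relative of p53 that maintains basal epithelial cells in mammary gland and skin. Sox4, Sox9 and Sox10 are transcription factors with an HMG box that bind DNA in progenitor cells of many tissues, and Sox9 and Sox10 have been tied to mammary stem and progenitor states. Kit is a receptor tyrosine kinase found on luminal progenitors in the gland, on mast cells and on melanocytes. Oxtr is the oxytocin receptor, through which myoepithelial cells contract to eject milk, and Procr, the endothelial protein C receptor, has been used to isolate a mammary stem cell population in mice.

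Total counts were 34988358 to 44645514 in replicates 1 and 2 and 68581024 to 76329473 in replicates 3 and 4. Cldn7 averaged 33.6 ± 7.15 CPM (read counts relative to library size, scaled by TMM) with hairpin 1, 28.4 ± 4.29 CPM with hairpin 2 and 142 ± 34.6 CPM in the control (SD, n = 4 each). It fell by 2.18 on the log2 scale over both hairpins (SE 0.07, edgeR adjusted p = 1.63e-07). As to the labelled epithelial identity, Epcam, an epithelial adhesion molecule, stood at 802 to 1857 CPM over the 12 libraries, and it fell by 0.34 with hairpin 2 against the control (adjusted p = 0.0151). Libraries that share a replicate number resembled each other, so each comparison was made by replicate number, as a block in the model. All adjusted p-values below are from edgeR's quasi-likelihood test with that block, over all 17025 genes, and a gene was called at an adjusted p under 0.05.

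With hairpin 2, Trp63 rose by 0.56 (log2, SE 0.12) and Sox9 by 0.39 (SE 0.08) against the control, and these were the only members called against the control in this model. Kit differed between the hairpins, higher by 0.38 (log2, SE 0.06) with hairpin 2 than with hairpin 1, although neither hairpin moved it past the threshold against the control. Sox4, Sox10, Oxtr and Procr were not called in any of the 4 contrasts. In each contrast 3 of the 7 had an unadjusted p under 0.05 by edgeR. Of all 17025 genes, 2925 did over both hairpins, 2176 with hairpin 1, 3841 with hairpin 2 and 3414 between the hairpins. DESeq2, run as an alternative, called Trp63 and Sox9 over both hairpins and with hairpin 2, Kit between the hairpins and none with hairpin 1. Of all genes it called 1161, 607, 1860 and 1436 in the order of the counts just given. For the edgeR calls at an adjusted p under 0.05, the shares of all tested genes were 5.76% with hairpin 2 (2.83% higher) and 0.728% with hairpin 1. They were 1.79% for both hairpins together and 3.44% for hairpin 2 against hairpin 1 (1.57% higher). Over all genes, hairpin 2 gave 482 higher and 499 lower calls, and 581 higher and 318 lower when scaled by total counts alone. Hairpin 1 gave 65 higher and 59 lower, and both hairpins together gave 143 higher and 161 lower, or 147 and 97 by total counts. Hairpin 2 against hairpin 1 gave 267 higher and 318 lower, or 340 and 258 by total counts. Without the replicate block no member was called (adjusted p = 1.00 for the 3 calls above), and Cldn7 was called in every contrast against the control.

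**Figure D1:**
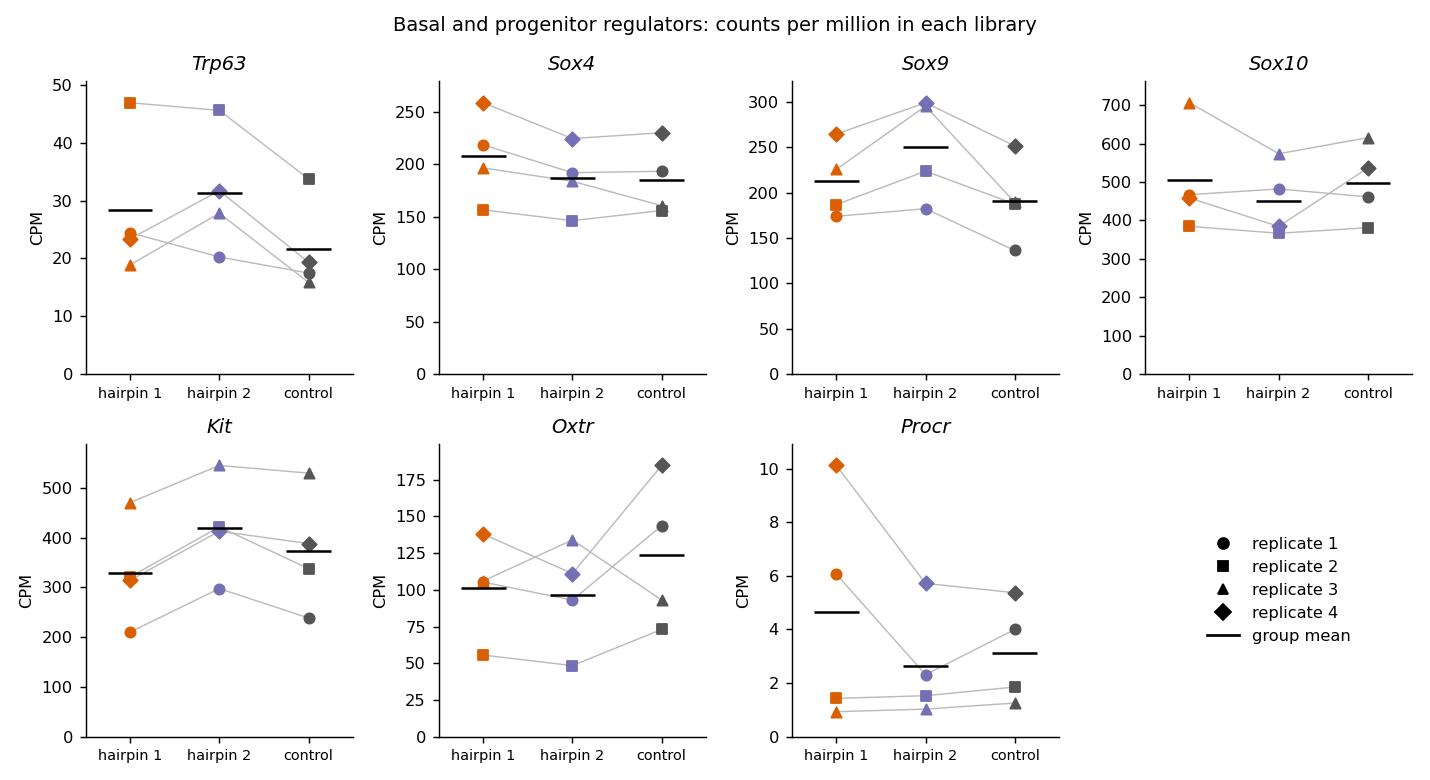
CPM (y axis, linear from 0) of the 7 genes in each of the 12 libraries, by group on the x axis; a symbol is a library, its shape the replicate number, a grey line joins libraries of 1 number and a black bar is the mean of 4. Trp63 lies above its own control in all 8 pairs, and Kit is higher with hairpin 2 than with hairpin 1 in all 4 replicates.

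Trp63 had 24.5, 46.9, 18.9 and 23.4 CPM in hairpin 1 replicates 1 to 4, and 20.3, 45.6, 27.8 and 31.7 CPM in hairpin 2. The control replicates had 17.5, 33.8, 15.9 and 19.3 CPM. Replicate 2 was the highest of every group, so the groups overlap in level, yet each of the 8 hairpin libraries lay above the control of its own number. Of all genes tested, 8.03% had the same sign in all 8 of these pairs, in which each control is used with both hairpins. The pair differences were 0.25 to 0.48 (log2 CPM) with hairpin 1 and 0.21 to 0.81 with hairpin 2, where replicates 3 and 4 held the largest.

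The Trp63 call with hairpin 2 (adjusted p = 0.0270, 95% interval 0.29 to 0.83) corresponds to a level 47.3% above the control. With hairpin 1 the difference was 0.38 (SE 0.12, adjusted p = 0.212) and with both hairpins 0.47 (SE 0.11, adjusted p = 0.0587), neither past the threshold. Fitted on the 2 groups compared alone, the calls changed places: hairpin 1 passed for Trp63 at 0.39 (adjusted p = 0.0339) and hairpin 2 did not at 0.54 (0.0962). The hairpins themselves did not differ detectably in Trp63, with hairpin 2 minus hairpin 1 at 0.18 (95% interval -0.09 to 0.45, adjusted p = 0.437). The hairpin 2 difference was 0.33 (adjusted p = 0.219) in replicates 1 and 2 alone and 0.78 (adjusted p = 0.0330) in replicates 3 and 4 alone. The call was lost when any 1 control library was left out (adjusted p = 0.0636, 0.0501, 0.0907 and 0.0727 for control replicates 1 to 4), and without hairpin 2 replicate 3 (0.0532) or 4 (0.0944). It was also lost without all 3 libraries of replicate 2, 3 or 4 (0.0671, 0.0861 and 0.130). Over both hairpins it was gained without hairpin 2 replicate 1 (adjusted p = 0.0322) or replicate 3 (0.0426). Trp63 (NCBI Gene 22061) spans chr16:25683763-25892102 on the plus strand of GRCm38, with 8 annotated transcripts. Gene counts do not separate its long TA forms from the deltaN forms, which start at an internal promoter and are typical of basal cells.

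Sox9 had 174, 187, 225 and 264 CPM in hairpin 1 replicates 1 to 4, and 182, 224, 295 and 299 CPM in hairpin 2. The control replicates had 136, 187, 189 and 251 CPM. Sox9 lay above its own control in 7 of 8 pairs, and hairpin 1 replicate 2 was level with its control. Hairpin 2 lay above hairpin 1 in all 4 replicates, and the levels of the groups overlap.

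The Sox9 rise with hairpin 2 (adjusted p = 0.0178, 95% interval 0.22 to 0.56) is a level 31.1% above the control. The difference was 0.17 with hairpin 1 (SE 0.08, adjusted p = 0.393) and 0.28 with both hairpins (SE 0.07, adjusted p = 0.0631). Hairpin 2 minus hairpin 1 was 0.22 (95% interval 0.06 to 0.39, adjusted p = 0.134) and did not pass. The hairpin 2 call was lost without control replicate 1 (adjusted p = 0.0668) or control replicate 3 (0.0608), and without all 3 libraries of replicate 1 (0.0928), 3 (0.0664) or 4 (0.0670). On the 2 groups compared alone it was also lost (0.106). Over both hairpins a call was gained without hairpin 2 replicate 3 (0.0437). In replicates 1 and 2 alone the hairpin 2 difference was 0.33 (adjusted p = 0.210), and in replicates 3 and 4 alone 0.47 (0.139). Sox9 (NCBI Gene 20682; chr11:112782224-112787760, plus strand, 1 annotated transcript of 3 exons) shares no exon bases with another annotated gene.

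Sox4, which acts in progenitor survival and in TGF-beta responses of epithelial cells, stood at 146 to 258 CPM over the 12 libraries. It was 0.16 (log2, SE 0.06, adjusted p = 0.276) above the control with hairpin 1 and 0.01 (SE 0.06, adjusted p = 0.920) with hairpin 2. All 4 hairpin 1 libraries lay above their controls and 1 of 4 hairpin 2 libraries did, and hairpin 2 was below hairpin 1 in all 4 replicates by 0.15 (SE 0.06, adjusted p = 0.192). None of these passed the threshold. Sox4 is a single-exon gene (NCBI Gene 20677; chr13:28948919-28953713, minus strand). The antisense long noncoding RNA Gm26735 covers 54.6% of its exon bases, and since the counting is not stated to use strand, reads of the pair cannot be told apart.

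Sox10 ranged over 366 to 706 CPM in the 12 libraries. It is best known for specifying neural crest cells, Schwann cells and melanocytes, and in the gland it is expressed by basal and luminal progenitor cells. Its means were 504 ± 140 CPM with hairpin 1, 452 ± 95.8 CPM with hairpin 2 and 498 ± 100.4 CPM in the control (SD, n = 4 each). The difference from the control was -0.0017 with hairpin 1 (95% interval -0.19 to 0.19, adjusted p = 0.997), a value whose sign turned under most other settings, and -0.14 with hairpin 2 (95% interval -0.34 to 0.05, adjusted p = 0.363). Replicate 4 held the largest difference, 384 CPM with hairpin 2 against 536 CPM in the control. Sox10 (NCBI Gene 20665) lies at chr15:79154908-79165240 on the minus strand.

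Kit had 210, 321, 470 and 314 CPM in hairpin 1 replicates 1 to 4, and 298, 421, 545 and 413 CPM in hairpin 2. The control replicates had 239, 338, 529 and 388 CPM. Within every replicate the order was the same, with hairpin 1 lowest, the control between and hairpin 2 highest, although the spread over replicates exceeds these gaps and the 3 groups overlap. Kit with hairpin 2 was 29.7% above hairpin 1 (log2 0.38, 95% interval 0.23 to 0.52, adjusted p = 0.0139).

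Against the control, Kit was at -0.18 with hairpin 1 (SE 0.06, adjusted p = 0.263) and at 0.19 with hairpin 2 (SE 0.06, adjusted p = 0.112), opposite signs whose mean over both hairpins was 0.0046 (SE 0.06, adjusted p = 0.982). The difference between the hairpins was 0.44 in replicates 1 and 2 alone (adjusted p = 0.0640) and 0.30 in replicates 3 and 4 alone (0.348). The call was lost without hairpin 1 replicate 1 (adjusted p = 0.0756), 2 (0.0547) or 4 (0.0666), or without hairpin 2 replicate 1 (0.0583), and without all 3 libraries of replicate 1 (0.154), 2 (0.0589) or 4 (0.0654). Kit (NCBI Gene 16590) spans chr5:75574916-75656722 on the plus strand, in 21 exons.

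RefSeq's promoter table (GRCm38.p6; 250 bases before to 50 after an annotated start) has entries for 4 of the 7 members, Sox4, Kit, Oxtr and Procr, and none for Trp63, Sox9 and Sox10. Kit is shown because it is the member with an entry that was called. Oxtr is shown because its fitted differences from the control were negative and those of Cnn1, Myh11, Tagln and Mylk positive. None of the Oxtr differences was called. Of 22 tested genes of oxytocin signalling to contraction, 11 were positive and 11 negative over both hairpins. Capitals mark matches to the motifs searched on both strands, and each sequence is written 5′ to 3′ on the strand of its gene, at chr5:75574737-75575036 (plus) for Kit and chr6:112489776-112490075 (minus) for Oxtr.
Kit: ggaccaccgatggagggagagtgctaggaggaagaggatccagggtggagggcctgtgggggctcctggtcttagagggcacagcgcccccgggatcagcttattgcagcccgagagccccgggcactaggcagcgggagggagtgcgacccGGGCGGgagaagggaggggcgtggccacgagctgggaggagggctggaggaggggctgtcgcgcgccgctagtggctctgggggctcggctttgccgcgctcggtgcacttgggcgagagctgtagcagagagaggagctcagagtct
Oxtr: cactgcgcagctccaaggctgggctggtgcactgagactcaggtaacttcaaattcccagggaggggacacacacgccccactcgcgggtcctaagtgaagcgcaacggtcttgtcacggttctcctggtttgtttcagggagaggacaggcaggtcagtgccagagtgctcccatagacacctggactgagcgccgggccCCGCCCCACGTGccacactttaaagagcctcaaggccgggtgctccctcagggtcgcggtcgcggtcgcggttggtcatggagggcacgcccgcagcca

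In the Kit window the capitals are 1 GC box, GGGCGG, beginning 98 bases before the start. In the Oxtr window they are a GC box on the other strand, at 49 bases before the start, and an E-box, CACGTG, at 43 bases before it. A GC box was in 35.7% of 32851 windows of this length and CACGTG in 7.15%. The AP-1 motif TGACTCA was in 5.20% of windows. The motif AGATAA, bound by GATA factors, was in 11.2%. A first Sox motif, ACAAAG, was in 18.7% of windows. A second Sox motif, ACAATG, was in 12.6%. The STAT motif TTCNNNGAA was in 8.30% of windows. Neither the Kit nor the Oxtr window holds one of these 5, the Procr window holds 1 TGACTCA and the Sox4 window holds none of the motifs. A match is a description of letters and was not tested for binding.

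Oxtr had 105, 55.6, 106 and 138 CPM in hairpin 1 replicates 1 to 4, and 93.0, 48.5, 134 and 111 CPM in hairpin 2. The control replicates had 144, 73.1, 93.1 and 185 CPM. In replicates 1, 2 and 4 both hairpins lay below the control, and in replicate 3 both lay above it, so Oxtr was lower in 6 of 8 pairs. Over both hairpins the difference was -0.32 (log2, SE 0.14, adjusted p = 0.276), at -0.29 with hairpin 1 (SE 0.17, adjusted p = 0.517) and -0.36 with hairpin 2 (SE 0.17, adjusted p = 0.237), none past the threshold.

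The call for Oxtr turned on replicate 3. With its 3 libraries left out, a choice made after seeing the data, Oxtr fell by 0.53 over both hairpins (adjusted p = 0.00529), fell by 0.42 with hairpin 1 (0.0250) and fell by 0.65 with hairpin 2 (0.00289). Leaving out control replicate 3 alone gave -0.53 (adjusted p = 0.0462) over both hairpins and -0.58 (0.0279) for hairpin 2, and leaving out hairpin 2 replicate 3 alone gave -0.42 (0.0273) and -0.58 (0.0162). In replicates 1 and 2 alone it was -0.52 (adjusted p = 0.0433) over both hairpins and -0.61 (0.0269) with hairpin 2, and in replicates 3 and 4 alone -0.11 (0.911) and -0.08 (0.914). Oxtr with hairpin 1 did not pass in these other fits. It was -0.49 (adjusted p = 0.0871) without control replicate 3 and -0.27 (0.194) without hairpin 2 replicate 3. Without hairpin 1 replicate 3 it was -0.28 (0.695), and in replicates 1 and 2 alone -0.42 (0.128). Among the contractile genes listed as basal or myoepithelial markers, Cnn1 rose over both hairpins by 1.83 (log2), Myh11 by 1.58 and Tagln by 1.14. With 1 library left out, these calls were lost in 2 of 12 fits for Cnn1, 7 for Myh11 and 5 for Tagln. Which cells made this RNA was not tested, and pericyte and fibroblast marker sums were also higher in most pairs. Mylk, the kinase that activates smooth muscle myosin, was at 0.05 with hairpin 1 and 0.33 with hairpin 2 (adjusted p = 0.946 and 0.274). Oxtr (NCBI Gene 18430) lies at chr6:112473683-112489943 on the minus strand.

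Procr had few reads, at 0.936 to 10.1 CPM, from 50 to 790 counts a library. Hairpin 1 replicates 1 to 4 had 6.06, 1.43, 0.936 and 10.1 CPM. Hairpin 2 had 2.31, 1.53, 1.03 and 5.72 CPM, and the control had 4.0, 1.86, 1.26 and 5.37 CPM. Replicates 1 and 4 were high and replicates 2 and 3 low in all 3 groups, and Procr lay above its control in 3 of 8 pairs. The difference was 0.26 with hairpin 1 (95% interval -0.33 to 0.86, adjusted p = 0.750) and -0.30 with hairpin 2 (-0.90 to 0.30, adjusted p = 0.561), intervals that hold changes of more than 1.5 times the control level. Procr (NCBI Gene 19124) lies at chr2:155751117-155755471 on the plus strand.

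**Figure D2:**
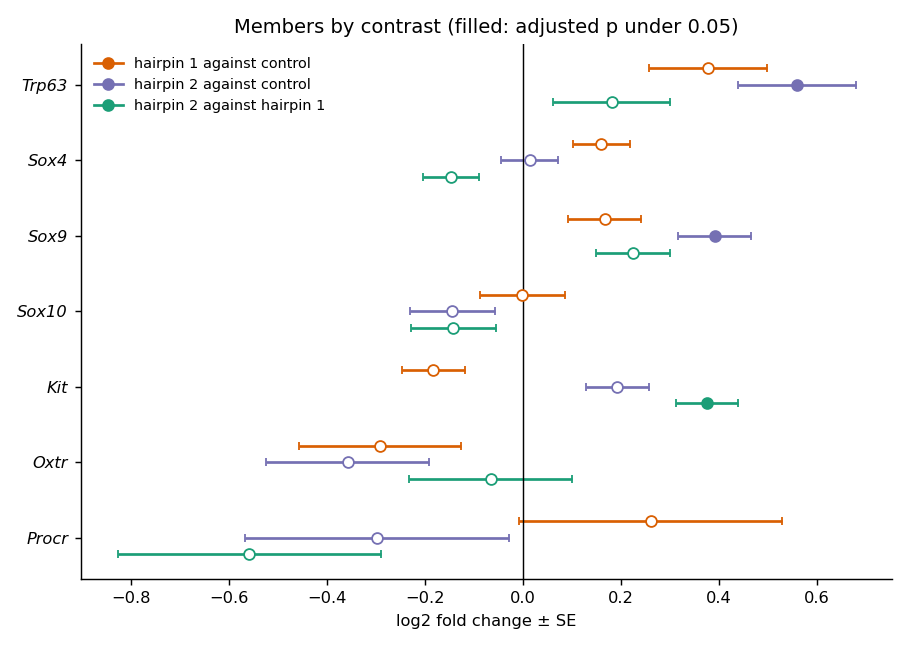
Log2 fold change (x axis, point) with its SE (bar) for each of the 7 genes (y axis) in 3 contrasts, hairpin 1 against control, hairpin 2 against control and hairpin 2 against hairpin 1; filled points have an adjusted p under 0.05. Trp63 and Sox9 with hairpin 2 and Kit between the hairpins are filled, and Kit and Procr lie on opposite sides of 0 with the 2 hairpins.

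The replicate number took a larger share of the variation of each member than the group did. It held 69.7% (Sox9) to 88.7% (Procr) of the sum of squares of log2 CPM, against a median of 74.6% over all tested genes. The group held 24.1% for Sox9, 20.5% for Trp63 and 13.9% for Kit, and 3.44% to 8.56% for the other 4, against a median of 8.27% over all genes. The highest library was 1.77 times the lowest for Sox4, 1.93 for Sox10, 2.19 for Sox9, 2.59 for Kit, 2.96 for Trp63, 3.81 for Oxtr and 10.8 for Procr. The median log2 difference of the 7 was 0.0046 over both hairpins, 0.16 with hairpin 1, 0.01 with hairpin 2 and -0.07 between the hairpins, beside all-gene medians of -0.0024, -0.0019, 0.0044 and 0.0082.

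Levels per kilobase of exon allow the genes to be compared with each other. In the control, Sox10 stood at 163 ± 32.9 CPM per kb (SD, n = 4) and its range of 125 to 202 lay apart from every other member. Sox9 (46.2 ± 11.4), Kit (41.9 ± 13.6) and Sox4 (38.5 ± 7.16) followed with overlapping ranges. The range of Oxtr (25.8 ± 10.5), 15.3 to 38.6, overlapped each of theirs. Trp63 (2.58 ± 0.98) and Procr (1.54 ± 0.94) were lowest and overlapped each other. With the longest transcript as the length, Kit moves above Sox9 (71.3 against 46.2 CPM per kb), since its 8911 exon bases exceed its longest transcript of 5241 bases.

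**Figure D3:**
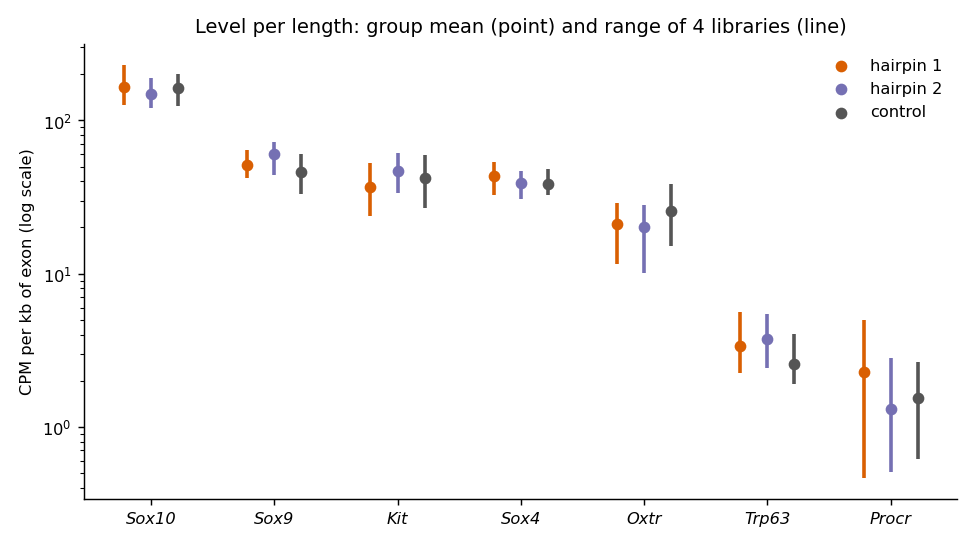
CPM per kb of exon (y axis, log scale) of the 7 genes (x axis) in the 3 groups; points are means of 4 libraries and lines their ranges. Sox10 stands highest at 163 CPM per kb in the control, and Trp63 and Procr lie lowest at 2.58 and 1.54.

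Genes most like each member were found by the correlation of log2 CPM over the 12 libraries after subtracting the mean of each replicate number. These are descriptions, since the libraries share groups and were scaled together. Among 12420 candidates, Trp63 was closest to Tagln, the smooth muscle protein transgelin (Pearson r 0.973, Spearman rho 0.930), and to Jag2, a Notch ligand (r 0.961, rho 0.937). Sox9 was closest to Pde4a, a cyclic AMP phosphodiesterase (r 0.973), and Cluh (r 0.969), and Sox4 to Ppard, a nuclear receptor (r 0.950), and Il1rn, the interleukin 1 receptor antagonist (r 0.947). Sox10 was closest to the receptor Notch3 (r 0.938) and the phosphatase Phlpp1 (r 0.928), and Kit to Eefsec, the selenocysteine elongation factor (r 0.970), and Sec14l1 (r 0.960). Oxtr was closest to Srrd (r 0.978) and Ccni (r 0.949), and Procr to Pabir1 (r 0.925) and Ociad2 (r 0.905). Between members, Trp63 and Sox9 ran most alike (r 0.818, rho 0.783), and Sox4 and Kit (r -0.743) and Kit and Procr (r -0.722) most oppositely.

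The 25 basal adhesion and keratin genes, many of them known p63 targets, gave 4 that rose and 21 that did not pass over both hairpins, with a median difference of 0.43. With hairpin 2, 6 rose and none fell (median 0.61). With hairpin 1 none passed (median 0.16), where 7 had an unadjusted p under 0.05 by edgeR and DESeq2 called 3. Between the hairpins none passed either (median 0.29), where 6 had such a p and DESeq2 called 3. Of all 17025 genes, 2176 with hairpin 1 and 3414 between the hairpins had such a p, and DESeq2 called 607 and 1436. Fat2, a giant cadherin, averaged 13.8 ± 7.67 CPM with hairpin 1, 18.8 ± 6.99 CPM with hairpin 2 and 8.93 ± 6.53 CPM in the control (SD, n = 4 each), and rose by 0.97 over both hairpins (SE 0.13, adjusted p = 0.00991). Cdh3, the P-cadherin of basal cells, rose by 0.86 (adjusted p = 0.0183), the desmosomal cadherin Dsc3 by 0.93 (0.0262) and Jag2 by 0.61 (0.0384). Fgfr2, a receptor for fibroblast growth factors, rose by 0.77 with hairpin 2 (adjusted p = 0.0176) and Col17a1, a hemidesmosome collagen, by 0.96 (0.0428). The basal keratins Krt5 and Krt14 were at 1.14 and 0.70 with hairpin 2 without passing (adjusted p = 0.0617 and 0.144).

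Of 24 other basal and progenitor regulators, 2 rose and 2 fell over both hairpins (median 0.14), and 5 rose and 2 fell with hairpin 2 (median 0.22). Lgr5, a receptor for R-spondins in Wnt signalling, averaged 18.9 ± 9.32 CPM with hairpin 1, 30.1 ± 15.0 CPM with hairpin 2 and 9.51 ± 3.96 CPM in the control, and rose by 1.30 over both hairpins (SE 0.23, adjusted p = 0.0247). Bcl11b rose by 0.76 (adjusted p = 0.0399), while Mef2c fell by 0.51 (0.0120) and the tetraspanin Tspan8 fell by 0.31 (0.0266). With hairpin 2 the basal repressor Snai2 rose by 0.99 (adjusted p = 0.0146), Id4 by 1.23 (0.0171) and Trp73, the p53 family member p73, by 1.36 (0.0236), and the phosphatase Ptpre fell by 0.45 (0.0135). With hairpin 1, 2 passed (median 0.08): Mef2c fell by 0.61 (adjusted p = 0.0177) and Tspan8 fell by 0.49 (0.0131), and between the hairpins (median 0.21) Tspan8 alone passed, higher by 0.35 with hairpin 2 (0.0209).

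Of 17 other Sox genes 12 were tested, and none passed over both hairpins (median 0.19) or with hairpin 1 (0.03), where edgeR gave 2 with an unadjusted p under 0.05 in each contrast and DESeq2 called none. Sox13 rose with hairpin 2 by 0.37 (adjusted p = 0.0256; list median 0.32) and stood 0.47 higher with hairpin 2 than with hairpin 1 (0.0127; list median 0.10). Of 11 tested cartilage genes that Sox9 is known to activate in chondrocytes, none rose and 3 fell over both hairpins (median -0.22). Col9a2, a collagen IX chain, fell by 0.78 (adjusted p = 0.0194), Cnmd, which encodes chondromodulin, fell by 1.37 (0.0247) and Col11a1 fell by 0.51 (0.0252). With hairpin 2 these 3 and Comp fell (median -0.05), with hairpin 1 none passed (median -0.33, 4 with an unadjusted p under 0.05 by edgeR and 1 called by DESeq2), and between the hairpins Col9a2 fell by 0.85 (0.0173; list median -0.0059). Of 12 tested neural crest genes that Sox10 activates, none passed in any contrast (medians 0.0071 over both hairpins, -0.18 with hairpin 1, 0.27 with hairpin 2 and 0.25 between them). In that order edgeR gave 5, 3, 4 and 0 of them an unadjusted p under 0.05, and DESeq2 called 2, 0, 4 and 0. Of all 17025 genes, 2925, 2176, 3841 and 3414 had such a p in the same order, and DESeq2 called 1161, 607, 1860 and 1436.

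Among the receptors' pathways, 3 of 23 genes of the Kit ligand and its signalling rose with hairpin 2 (median 0.04) and none passed in the other contrasts (medians 0.02 over both hairpins, 0.03 with hairpin 1 and -0.02 between them; 6, 2 and 7 with an unadjusted p under 0.05 by edgeR, and 2, 0 and 2 called by DESeq2). They were Cblb, a ubiquitin ligase that limits receptor signalling, by 0.53 (adjusted p = 0.0216), the Ras activator Sos1 by 0.32 (0.0230) and the adaptor Gab1 by 0.32 (0.0388). None of 22 tested genes that carry the oxytocin signal to contraction passed in any contrast (medians -0.0014, 0.02, -0.0073 and 0.03 in the same order). Of these, edgeR gave 6, 4, 6 and 5 an unadjusted p under 0.05 and DESeq2 called 2 in each contrast. Of all 17025 genes, 2925, 2176, 3841 and 3414 had such a p in the same order, and DESeq2 called 1161, 607, 1860 and 1436. Rock2, a kinase that promotes contraction, had the smallest p of the oxytocin list over both hairpins, at 0.19 (adjusted p = 0.0959). In the protein C pathway 10 of 13 were tested (medians 0.21, 0.38, 0.09 and -0.15), and F3, the tissue factor that starts coagulation, rose with hairpin 1 by 0.48 (adjusted p = 0.0220) and was lower with hairpin 2 than with hairpin 1 (log2 -0.54, adjusted p = 0.00520).

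Of 10 genes of luminal progenitors, the cells in which Kit is found in the gland, 2 rose and 2 fell over both hairpins (median -0.11). With hairpin 2, 4 rose and 2 fell (median -0.0052), and between the hairpins 2 were higher and 2 lower (median 0.20). With hairpin 1 none passed (median -0.06), where 3 had an unadjusted p under 0.05 by edgeR and DESeq2 called none. Of all 17025 genes, 2176 had such a p with hairpin 1, and DESeq2 called 607. Ehf, an ETS factor of epithelium, rose with hairpin 2 by 0.53 (adjusted p = 0.00201) and Wfdc18, a secreted milk protein, by 0.81 (0.00265). Ltf (lactoferrin) and Lbp rose by 0.98 and 0.54 (adjusted p = 0.0167 and 0.0291). Itgb3, the integrin beta 3 chain, fell by 0.82 (adjusted p = 0.00195) and Aldh1a3, an aldehyde dehydrogenase, fell by 0.57 (0.00558).

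Many of these list calls were lost when 1 library was left out. Comp and Gab1 lost their hairpin 2 calls whichever hairpin 1 library was left out, with differences of -0.82 to -0.80 and 0.32. In those fits 619 to 720 of all genes were called with hairpin 2, beside 981 in the full fit. Of 53 calls over the 4 contrasts, 17 were kept whichever 1 library was left out, 13 of the 27 with hairpin 2 against the control, 1 of 15 over both hairpins, 0 of 3 with hairpin 1 and 3 of 8 between the hairpins. Fat2, Cdh3, Dsc3, Lgr5, Bcl11b, Col9a2, Cnmd, Col11a1, Ehf, Wfdc18, Itgb3, Aldh1a3 and Ptpre kept theirs with hairpin 2. Leaving out control replicate 1, 3 or 4 lost 25, 25 and 24 calls and control replicate 2 lost 8. Leaving out hairpin 1 replicates 1 to 4 lost 19, 20, 16 and 16, and hairpin 2 replicates 1 to 4 lost 15, 1, 6 and 16. Without all 3 libraries of replicate 1, 2, 3 or 4, 41, 14, 22 and 34 of the calls were lost.

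**Figure D4:**
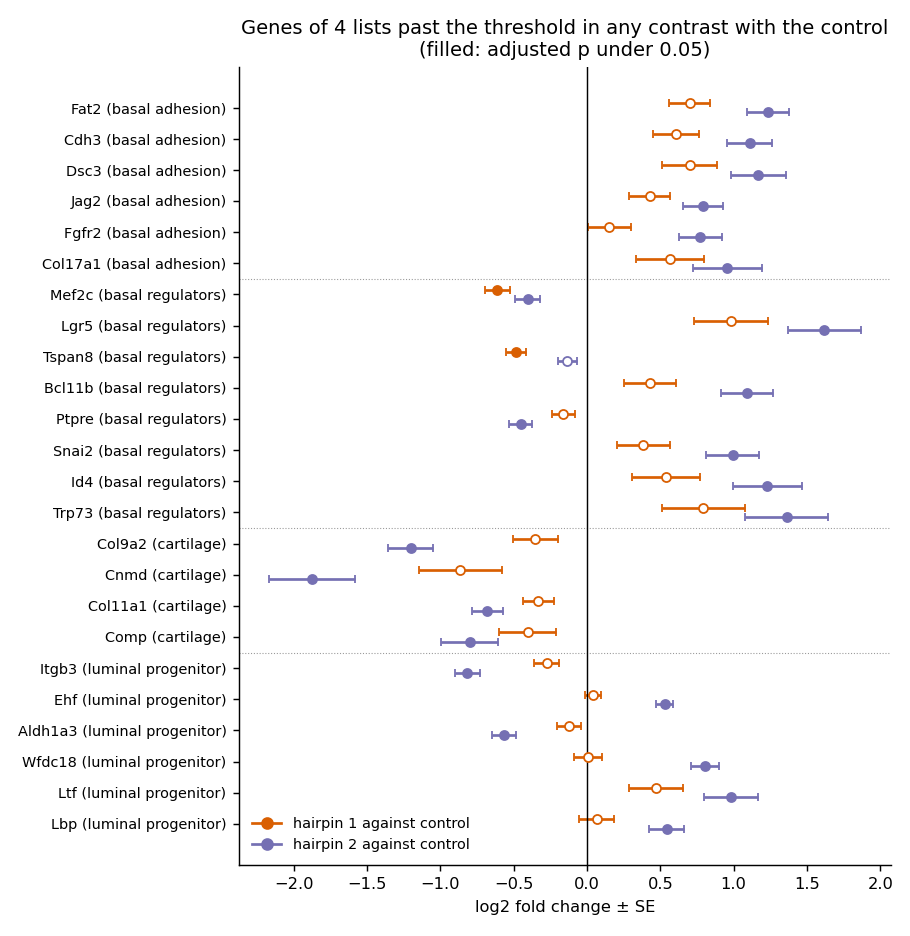
Log2 fold change with SE (x axis) for 24 genes from 4 lists (y axis, list in brackets), with hairpin 1 and with hairpin 2 against the control; filled points have an adjusted p under 0.05. Only genes called in a contrast with the control are shown, so the side on which they lie is largely set by that choice. The 6 basal adhesion genes shown lie right of 0 and the 4 cartilage genes shown left of it with both hairpins. The luminal progenitor genes lie on both sides. Of all 25 basal adhesion genes, 18 were positive and 7 negative with hairpin 2. Of all 11 tested cartilage genes, 5 were positive and 6 negative.

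Markers of other cells were measured beside these genes. The 7 markers of basal or myoepithelial cells, all detected, summed to 1070 to 3279 CPM with hairpin 1, 1875 to 3388 CPM with hairpin 2 and 725 to 3324 CPM in the control, higher than their own control in 3 of 4 and 4 of 4 pairs, and 4 of the 7 rose with hairpin 2, Acta2 by 1.14 (adjusted p = 0.0193). The 8 fibroblast markers summed to 245 to 4749, 499 to 8476 and 216 to 3879 CPM, higher in 3 of 4 pairs with each hairpin, and Dcn rose with hairpin 2 by 1.02 (adjusted p = 0.0113). The 7 pericyte markers summed to 29.0 to 219, 36.8 to 277 and 24.8 to 173 CPM, higher in 4 of 4 pairs with each hairpin. Pdgfrb was the largest part, averaging 52.4 CPM with hairpin 1, 68.4 with hairpin 2 and 40.2 in the control. Cspg4 followed at 16.8, 20.7 and 12.8 CPM, and Des, the next highest, reached at most 10.9 CPM. Higd1b was at 0 in some libraries. Of 6 tested, 5 differences were positive and 1 was negative with each hairpin. Pdgfrb and Cspg4 were past the threshold with hairpin 2 (0.67 and 0.74, adjusted p = 0.0110 and 0.0405). The 7 epithelial markers summed to 2688 to 4946, 2594 to 4636 and 2815 to 5136 CPM, higher in 1 of 4 pairs with each hairpin. Epcam was the only one of them called, and it fell by 0.25 over both hairpins (adjusted p = 0.0484) and by 0.34 with hairpin 2 (0.0151). With each hairpin, then, the basal, fibroblast and pericyte sums were higher in most pairs and the epithelial sum was lower in most. Trp63 was higher in 4 of 4 pairs with each hairpin, and Sox9 in 3 with hairpin 1 and 4 with hairpin 2. Krt5 and Krt14 are in both the basal marker sum and the basal adhesion list. The part of these markers in the results for Trp63, Sox9 and the basal lists was not tested. The hairpin 2 calls of Myh11, Cnn1, Tagln, Dcn and Pdgfrb held whichever 1 library was left out. Over both hairpins Myh11, Cnn1, Tagln and Pdgfrb lost their calls in 7, 2, 5 and 8 of 12 such fits. The Epcam call with hairpin 2 was lost without control replicate 3 (adjusted p = 0.0504) or hairpin 2 replicate 4 (0.0504), and its call over both hairpins was lost in 10 of 12 such fits. Acta2 lost its call in 4 of 12 and Cspg4 in 10 of 12. In libraries made from whole organoids, more cells of a type and more RNA per cell cannot be told apart.

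For Kit, the 8 mast cell markers summed to 0.713 to 1.43 CPM with hairpin 1, 0.893 to 1.20 CPM with hairpin 2 and 0.369 to 1.04 CPM in the control, with the defining proteases Cpa3, Mcpt4, Cma1 and Tpsb2 at 0.143 CPM or less in every library, beside 210 to 545 CPM of Kit. For Sox10, the 6 melanocyte markers summed to 1.86 to 4.69 CPM over all libraries, with Tyr and Dct at 0.0594 CPM or less. The 8 Schwann cell markers summed to 63.4 to 81.5 CPM with hairpin 1, 64.8 to 76.5 CPM with hairpin 2 and 68.4 to 105 CPM in the control, higher in 0 of 4 pairs with each hairpin, of which Mbp, also made outside myelin, gave 37.6 to 50.0 CPM, beside 366 to 706 CPM of Sox10. For Procr, first named for endothelium, the 10 endothelial markers summed to 4.46 to 12.7 CPM, with Cdh5, Emcn and Cldn5 at 0 in some libraries. The 9 macrophage markers summed to 33.1 to 123 CPM in replicates 1 and 2 and 2.23 to 20.8 CPM in replicates 3 and 4, in all groups alike. The 7 hormone-sensing luminal markers summed to 237 to 333 CPM, the 6 lymphocyte markers to 0.0461 to 5.41 CPM and the 5 adipocyte markers to 0.178 to 6.56 CPM. No gene of the lists from mast cells to adipocytes was called by edgeR in any contrast, and DESeq2 called at most 2 of a list. By edgeR at most 3 of a list had an unadjusted p under 0.05, the 3 being Schwann cell markers over both hairpins. In that contrast 2925 of all 17025 genes had such a p.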

How the data were processed

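The table holds whole-number read counts as deposited by the authors, 12 libraries, with no normalization; 25861 empty lines between genes were dropped. Per the submitters' processing notes, tools were FastQC 0.74, Trimmomatic 0.39 and DESeq2 1.34.0 on mm10; the aligner, annotation and strand setting are not given in the sources used. Per the labels, the kit was NEBNext Ultra with oligo-dT beads.

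Members and lists were chosen with earlier results of these data known. Here edgeR 4.0.16 (R 4.3.3) filtered genes with filterByExpr, scaled libraries by TMM (trimmed mean of M-values), and fitted group plus replicate number with the quasi-likelihood test on 12 libraries. P-values were adjusted by Benjamini-Hochberg for 17025 genes, with 0.05 as the threshold. CPM use the scaled library sizes, and log2 CPM a prior count of 2. The steps were tested on simulated counts. Deviations from group means correlated at 0.855 to 0.916 between libraries of 1 number and at -0.807 to 0.727 between others, and 12 of 12 libraries matched their own number best. This and the numbers in the titles are the source of the pairing.

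Named were the 7 members, Cldn7, from each of 9 lists the called genes and up to 4 of smallest p, and the 2 genes most like each member (mean at least 2 CPM); genes of 12 marker lists describe cell types. Coordinates are GENCODE M21. Alternatives were DESeq2 1.42.0, other scaling, no filter, no block, and fewer groups or libraries. Some genes of these lists are not reported here.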

Additional observations from a re-analysis of the deposited data

Results flagged for a closer look

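Kit was flagged as the 1 member called between the hairpins. Hairpin 2 minus hairpin 1 was 0.38 on the log2 scale (SE 0.06, edgeR adjusted p = 0.0139). The direction was the same in 4 of 4 replicates, with the 2 hairpins on opposite sides of the control. Of all genes tested, 3.44% were called in this contrast, 1.57% as higher. Sox9 (higher) and Sox4 (lower) also kept 1 direction in 4 of 4 replicates, without a call. The Kit call was lost without hairpin 1 replicate 1, 2 or 4 or hairpin 2 replicate 1, at a difference of 0.33 to 0.38. Without all 3 libraries of replicate 1, 2 or 4 it was lost too. In CPM no library lay far from the others of its group in any of the 21 groups of 4 values of the members.

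The same test was applied to log2 CPM with the mean of each replicate number subtracted, a check added after seeing the data. It flagged a library in 5 of the 21 groups, where chance gives about 1 in 20. Oxtr in control replicate 3 was at -0.24, beside 0.33 to 0.38 in the other control libraries. Oxtr in hairpin 2 replicate 3 was at 0.29, beside -0.35 to -0.26 in the others. Sox9 in hairpin 2 replicate 3 was at 0.34, beside 0.14 to 0.17, and without this library the Sox9 call with hairpin 2 was kept at 0.32 (adjusted p = 0.0278). Sox4 stood apart in hairpin 1 replicate 2, at 0.035 beside 0.12 to 0.13, and in hairpin 2 replicate 3, at 0.033 beside -0.080 to -0.063. The 3 groups' values sum to 0 within a replicate number, so these 5 are not independent.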

How the results depend on the processing

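The replicate block bears most on the calls. With no replicate block 1 gene was called in each contrast (406, 307, 606 and 490 with an unadjusted p under 0.05 for both hairpins, hairpin 1, hairpin 2 and hairpin 2 against hairpin 1), and no member or list gene. Counts of called genes in that order were 1161, 607, 1860 and 1436 with DESeq2, 25, 9, 82 and 84 in replicates 1 and 2 alone, and 5, 1, 327 and 42 in replicates 3 and 4 alone. With only the groups compared, 390 were called for hairpin 1 and 97 for hairpin 2, where Trp63 and Sox9 lost their calls with hairpin 2 (adjusted p = 0.0962 and 0.106), Trp63 gained one with hairpin 1 (0.0339) and Kit kept its own between the hairpins (0.0343). Leaving out 1 library, or all 3 of a replicate number (added after seeing the data), gave 26 to 554, 1 to 344, 185 to 1076 and 66 to 672. Other size factors, total counts and no filter kept the member calls, and with no filter Trp63 and Sox9 also passed over both hairpins (0.0319 and 0.0444).

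Signs turned for differences near 0. Kit over both hairpins was -0.0080 with no replicate block, -0.066 in replicates 3 and 4, and -0.034 to 0.052 with libraries left out. Procr over both was 0.17 with no block, 0.011 with total counts, 0.14 in replicates 3 and 4, and -0.21 to 0.085 with libraries left out. Sox10 over both was 0.0091 in replicates 1 and 2 and -0.11 to 0.034 with libraries left out. Sox10 with hairpin 1 was 0.016 with no block, 0.00064 with DESeq2, 0.00064 with other size factors, 0.0074 with total counts, 0.011 with no filter, 0.016 in 2 groups, 0.018 in replicates 1 and 2, 2.17e-05 in replicates 3 and 4, and -0.065 to 0.097 with libraries left out. In replicates 1 and 2, Sox4 with hairpin 2 was -0.056 (libraries left out: -0.045 to 0.058), Trp63 between the hairpins -0.16, and over both hairpins F2r -0.052 and Thbd -0.26. Oxtr between the hairpins was 0.050 in replicates 3 and 4, and -0.31 to 0.036 with libraries left out. The causes were not tested. Of 53 list calls, all 53 held with DESeq2, other size factors or no filter, 50 with total counts alone, and 0 with no replicate block. With only the groups compared 18 of 38 were lost, and 39 of 53 were lost in replicates 1 and 2 alone and 40 in replicates 3 and 4 alone. Without replicate 1, 2, 3 or 4, 41, 14, 22 and 34 were lost. Depth limits Procr most, at 50 to 790 counts a library.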
